A study of Mus musculus with 4 samples.

Results

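The Hedgehog pathway was followed here through 9 genes, Smo, Ptch1, Hhip, Cdon, Gas1, Boc, Gli1, Gli2 and Gli3, chosen as its receptors, co-receptors, transducers and targets and found by gene symbol among 52636 counted identifiers. All 9 passed the filter on low counts, among 16557 genes tested. The study sequenced RNA of mouse cells sorted by fluorescence as otic, from otocysts, the epithelial vesicles that become the inner ear. There were 2 libraries labelled Brg1cKO, a conditional knockout of the chromatin remodelling ATPase Brg1, and 2 labelled control. Each was made from 3000 cells with a strand-specific, random-primed kit and read from a single end over 75 bases. The deleting Cre, the alleles, the embryonic stage and the litters are, for either group, not given in the sources used here. Nor do the labels say that replicates came from separate embryos, so p-values reflect the spread among these 4 libraries alone, which may be technical.

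Sonic hedgehog (SHH) from the notochord and floor plate patterns the ventral otocyst. Without ligand, the receptor PTCH1 holds the transmembrane transducer SMO inactive, and GLI3 and GLI2 are processed towards repressors. Ligand bound by PTCH1 together with the co-receptors CDON, BOC or GAS1 releases SMO at the primary cilium, and full-length GLI2 and GLI3 then activate targets, of which Gli1, Ptch1 and Hhip are the most general. PTCH1 and HHIP bind the ligand and limit its action, so these targets are also feedback inhibitors. In the ear both the otic epithelium and the mesenchyme around it are known to respond.

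The libraries labelled Brg1cKO held 29361382 and 25875555 reads in genes, and the controls 15357265 and 19132360. Smarca4, the gene for Brg1, stood at 891 and 848 CPM (reads per 1000000 gene reads, with library sizes scaled by TMM) in libraries labelled Brg1cKO and at 816 and 815 CPM in the controls, with an edgeR adjusted p of 0.817. Its count takes in exons that may not have been deleted, so it checks the labels little, and each direction below rests on the labels. Of 14 markers of otic epithelium, 14 had lower means in libraries labelled Brg1cKO, with summed levels of 359 and 364 CPM in Brg1cKO against 1682 and 1966 CPM in the controls, and of these only Fbxo2 was at 0 anywhere, in replicate 2 of each group. Head mesenchyme markers summed to 3246 and 3291 CPM in libraries labelled Brg1cKO and to 3979 and 4372 CPM in the controls, and endothelial markers to 3302 and 3266 CPM in Brg1cKO against 3006 and 2938 CPM in control libraries. White blood cell markers summed to 1779 and 1680 CPM in Brg1cKO against 390 and 451 CPM in control libraries, and striated muscle markers to 1009 and 1031 CPM in Brg1cKO against 193 and 129 CPM in control libraries.

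For 7 of the 9 genes, all but Gli1 and Boc, a promoter window of 250 bases before to 50 bases after the RefSeq start was at hand. The letters GACCACCCA, the binding sequence known for GLI proteins, were in 0 of these 7 windows on either strand, against 0.253% of 32851 windows. The 7 inner letters ACCACCC, searched for after this, were in 1 of the 7, that of Gli2, against 4.61% of windows. The windows of Gas1 and Gli2 are shown for genes with lower values in both libraries labelled Brg1cKO, and that of Ptch1 for the best known target, whose values did not separate by group. They lie in GRCm38.p6 on the minus strand at chr13:60177486-60177785 (Gas1), chr1:119053570-119053869 (Gli2) and chr13:63565686-63565985 (Ptch1), and the sequences are RefSeq's, with capitals for the 7 letters, here read on the other strand as GGGTGGT from position 46 of the window. The RefSeq start of Ptch1 lies 7862 bases from the outer start of the GENCODE gene, that of Gas1 171 bases and that of Gli2 1 base. The Cdon window, counted among the 7, lies farthest off, at a start 30947 bases from that of the GENCODE gene, and holds 44.7% G and C and 3 CG pairs.
Gas1: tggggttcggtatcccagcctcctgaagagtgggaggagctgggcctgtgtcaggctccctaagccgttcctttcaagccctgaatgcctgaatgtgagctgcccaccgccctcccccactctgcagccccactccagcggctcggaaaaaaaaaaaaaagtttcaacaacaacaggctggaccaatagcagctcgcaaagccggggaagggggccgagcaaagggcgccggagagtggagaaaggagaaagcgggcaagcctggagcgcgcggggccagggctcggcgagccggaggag
Gli2: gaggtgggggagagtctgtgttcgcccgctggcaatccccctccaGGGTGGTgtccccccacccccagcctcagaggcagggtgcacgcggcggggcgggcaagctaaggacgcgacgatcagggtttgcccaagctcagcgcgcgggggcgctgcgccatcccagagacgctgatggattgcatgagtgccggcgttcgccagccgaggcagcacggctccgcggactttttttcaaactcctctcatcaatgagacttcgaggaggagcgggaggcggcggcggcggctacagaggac
Ptch1: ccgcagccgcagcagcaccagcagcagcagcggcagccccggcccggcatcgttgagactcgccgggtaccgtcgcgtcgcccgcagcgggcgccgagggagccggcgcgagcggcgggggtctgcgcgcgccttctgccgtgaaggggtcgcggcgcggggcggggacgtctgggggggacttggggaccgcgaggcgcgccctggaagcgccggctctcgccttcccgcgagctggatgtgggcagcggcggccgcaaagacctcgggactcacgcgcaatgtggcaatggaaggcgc
G and C made up 62.3% of the Gas1 window, 67.3% of the Gli2 window and 76.3% of the Ptch1 window, against a median of 52.7% over all windows, and they held 17, 28 and 47 CG pairs against a median of 7.

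Of the 9 genes, 6 had negative and 3 positive log2 fold changes of Brg1cKO over control, with a median of -0.61 against 0.03 over all genes tested. No member passed an adjusted p under 0.05 by edgeR (0 of 9, against 0.0302% of all genes tested, which is 5 genes). At an unadjusted p under 0.05 there were 2, Cdon and Gas1, both lower, where 4.8% of all genes were lower and 7.66% higher. DESeq2 called 4, Cdon, Gas1, Gli1 and Gli2, all lower, where it called 6.3% of all genes lower, and limma voom called 0, against 0.326% of genes in either direction. In 4 members, the same Cdon, Gas1, Gli1 and Gli2, both libraries labelled Brg1cKO lay under both controls, against 17.8% of all genes. In 1, Smo, they lay over both, against 26.3% of genes.

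**Figure D1:**
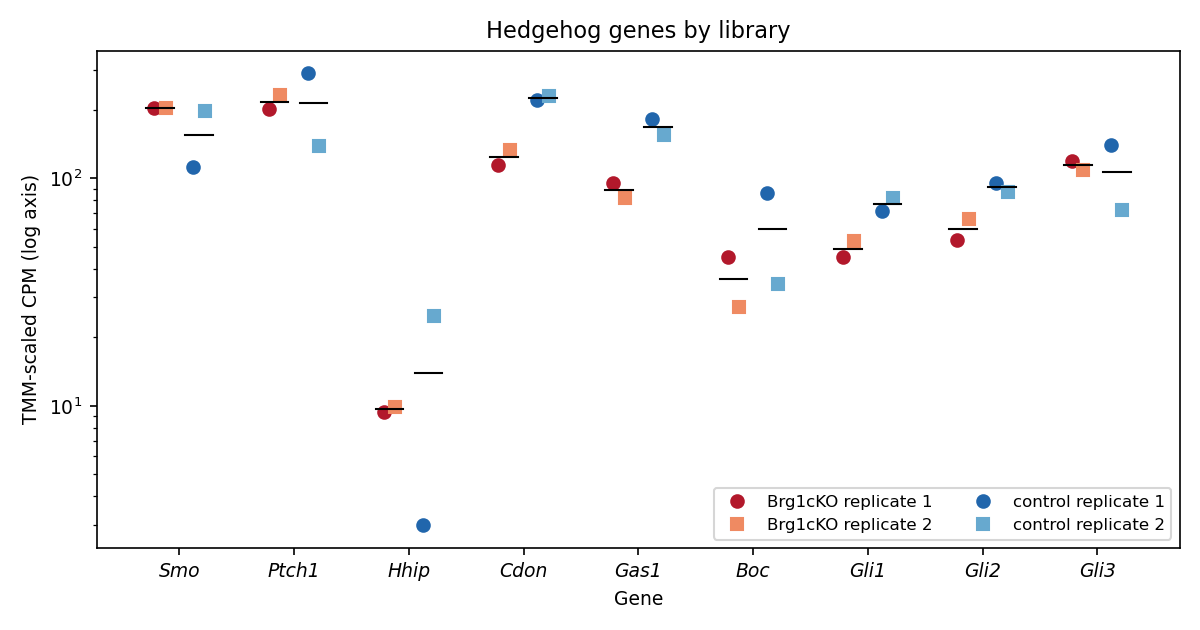
Level of each Hedgehog gene in each library, as TMM-scaled CPM on a log axis, with points for libraries and black lines for the mean of each group. The Brg1cKO points of Cdon, Gas1, Gli1 and Gli2 lie under both control points, while the control points of Ptch1, Gli3 and Hhip lie on either side of the Brg1cKO points and 1 control point of Boc lies between them.

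Cdon and Gas1, the co-receptors that help PTCH1 bind ligand, had the members' smallest p-values. Cdon, a cell surface protein of the immunoglobulin and fibronectin repeat family (ENSMUSG00000038119, chromosome 9, 35421128 to 35507652 in mm10, plus strand), stood at 115 and 133 CPM in libraries labelled Brg1cKO and at 221 and 230 CPM in the controls. The groups did not overlap, and the gap between them was several times that within either. Its means were 124 ± 13.2 CPM in Brg1cKO and 226 ± 6.16 CPM in control libraries (SD, n = 2 each). Cdon had a log2 fold change of -0.86 ± 0.196 (SE, 95% interval -1.32 to -0.40, unadjusted p = 0.00290, adjusted p = 0.233, edgeR).

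Gas1, a lipid-anchored surface protein encoded in 1 exon (ENSMUSG00000052957, chromosome 13, 60174405 to 60177365, minus strand), stood at 95.1 and 81.5 CPM in libraries labelled Brg1cKO and at 182 and 155 CPM in the controls. Here too the groups were apart, with means of 88.3 ± 9.61 CPM in Brg1cKO and 169 ± 19.0 CPM in control libraries (SD, n = 2 each). Gas1 had a log2 fold change of -0.93 ± 0.236 (SE, 95% interval -1.49 to -0.38, unadjusted p = 0.00514, adjusted p = 0.289, edgeR). Gas1 shares 589 exonic bases with Gm48488 on the opposite strand. That gene held at most 20 reads in any library, against 2113 to 2923 for Gas1. The strand setting of the counting was not stated, so whether reads in the shared bases were counted to Gas1 is not known.

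Boc, the paralogue of Cdon (ENSMUSG00000022687, chromosome 16, 44485049 to 44558897), stood at 45.1 and 27.1 CPM in libraries labelled Brg1cKO and at 85.6 and 34.2 CPM in the controls. Control replicate 2 lay between the Brg1cKO values, so the groups overlapped. Boc's log2 fold change was -0.73 ± 0.542 (SE, 95% interval -2.01 to 0.55, adjusted p = 0.714, edgeR). It was 0.08 without control replicate 1 and -1.26 without control replicate 2.

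Among the transcription factors, Gli1, an activator made only where the pathway is on (ENSMUSG00000025407, chromosome 10, 127329882 to 127341974), stood at 45.2 and 52.9 CPM in libraries labelled Brg1cKO and at 71.5 and 82.1 CPM in the controls. Gli2, the main activator (ENSMUSG00000048402, chromosome 1, 118834132 to 119053619), stood at 53.5 and 66.0 CPM in Brg1cKO against 95.5 and 86.6 CPM in control libraries. For both genes the groups were apart, and the distance between them was larger than that between replicates. Gli1 averaged 49.0 ± 5.44 in Brg1cKO against 76.8 ± 7.46 CPM in control libraries and Gli2 59.8 ± 8.82 in Brg1cKO against 91.0 ± 6.30 CPM in control libraries (SD, n = 2 each). Their log2 fold changes were -0.65 ± 0.330 (SE, 95% interval -1.42 to 0.13, adjusted p = 0.519, edgeR) for Gli1 and -0.61 ± 0.306 (SE, 95% interval -1.33 to 0.11, adjusted p = 0.511, edgeR) for Gli2. DESeq2 gave adjusted p-values of 0.0420 for Gli1 and 0.0483 for Gli2. Gli1 shares 62 exonic bases with Arhgap9 and 265 with Gm47200, both on the opposite strand. Gm47200 held 0 reads in every library, Arhgap9 held 328 and 431 reads in libraries labelled Brg1cKO against 75 and 547 in the controls, and the strand setting of the counting was not stated in the labels.

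Gli3, the main repressor (ENSMUSG00000021318, chromosome 13, 15463235 to 15730026), stood at 119 and 108 CPM in libraries labelled Brg1cKO and at 140 and 72.6 CPM in the controls. The controls lay on either side of both Brg1cKO values. Gli3's log2 fold change was 0.10 ± 0.345 (SE, 95% interval -0.71 to 0.91, adjusted p = 0.956, edgeR). It was 0.65 without control replicate 1 and -0.31 without control replicate 2. Per length, as TPM, Gli3 over Gli2 was 1.60 and 1.18 in libraries labelled Brg1cKO and 1.05 and 0.601 in the controls, and the difference was not tested. Of 7 such ratios between members, 5 overlapped between groups and 2 did not, Gli3 over Gli2 and Gli1 over Ptch1. Among the levels of all genes tested, 17.8% lay apart with Brg1cKO lower and 26.3% with Brg1cKO higher. Those shares are of single genes and none was worked out for ratios, so 2 of 7 is not read as a result. In both ratios that lay apart, control replicate 1 lay close to the libraries labelled Brg1cKO and control replicate 2 far from them.

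**Figure D2:**
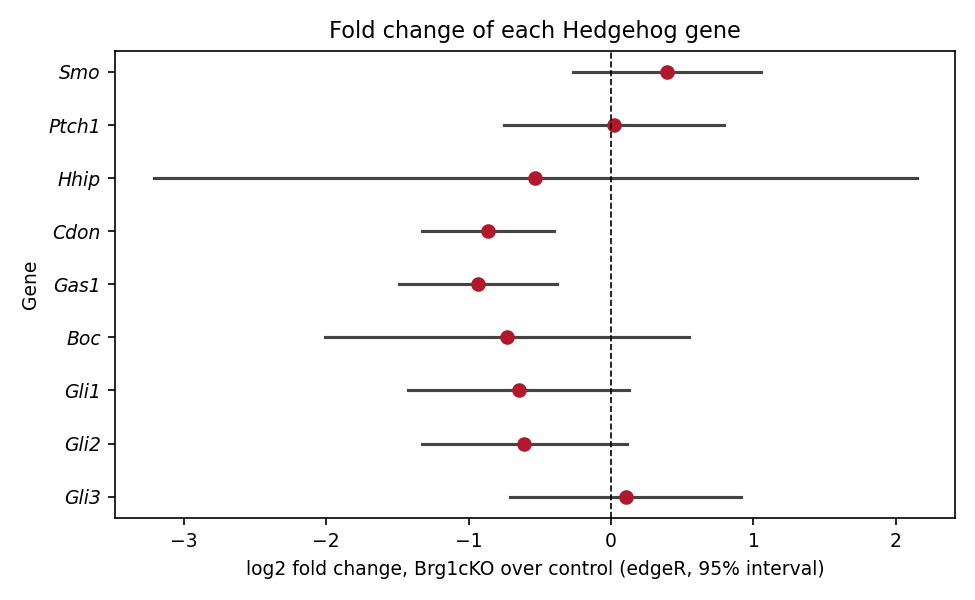
Log2 fold change of each Hedgehog gene, Brg1cKO over control, with its 95% interval from edgeR. The intervals of Cdon (-1.32 to -0.40) and Gas1 (-1.49 to -0.38) lie below 0, those of the other 7 genes span it, and none had an adjusted p under 0.05.

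Ptch1, the receptor and the target most used as a readout of the pathway (ENSMUSG00000021466, chromosome 13, 63508328 to 63573598), stood at 202 and 231 CPM in libraries labelled Brg1cKO and at 289 and 139 CPM in the controls. Both Brg1cKO values lay between the controls, which differed by 2.08-fold. Its means were 217 ± 20.2 CPM in Brg1cKO and 214 ± 106 CPM in control libraries (SD, n = 2 each). Its log2 fold change was 0.02 ± 0.328 (SE, 95% interval -0.75 to 0.79, adjusted p = 0.993, edgeR), and -0.02 with RLE scaling or with DESeq2. As folds the interval runs from 0.593 to 1.73, which takes in the fold of 0.638 estimated for Gli1. Per length, as TPM, Gli1 over Ptch1 was 0.635 and 0.651 in libraries labelled Brg1cKO and 0.704 and 1.68 in the controls.

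Hhip, which encodes a membrane protein that binds and sequesters the ligand (ENSMUSG00000064325, chromosome 8, 79965851 to 80058006), was the lowest of the 9 genes. It stood at 9.36 and 9.91 CPM in libraries labelled Brg1cKO, from 274 and 257 reads, and at 2.99 and 24.9 CPM in the controls, from 46 and 469 reads. The controls differed by 8.33-fold, with both Brg1cKO libraries between them. Hhip's log2 fold change was -0.53 ± 1.14 (SE, 95% interval -3.21 to 2.14, adjusted p = 0.927, edgeR). The estimate was 1.67 without control replicate 2, -1.36 without control replicate 1 and 0.15 with the replicate number as a block.

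Smo (ENSMUSG00000001761, chromosome 6, 29735503 to 29761365) stood at 203 and 202 CPM in libraries labelled Brg1cKO and at 112 and 196 CPM in the controls. Control replicate 2 lay close under the Brg1cKO values and control replicate 1 far under them. Smo's log2 fold change was 0.39 ± 0.280 (SE, 95% interval -0.27 to 1.05, adjusted p = 0.700, edgeR). It was 0.05 without control replicate 1 and 0.83 without control replicate 2.

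Compared per length as TPM, without TMM scaling, the order of the genes differed between groups. In the libraries labelled Brg1cKO it ran Smo (136.9 TPM on average), Gas1 (113), Cdon (61.2), Ptch1 (58.0), Gli3 (45.1), Gli1 (37.3), Gli2 (33.1), Boc (30.8) and Hhip (4.04), and the library values of Cdon and Ptch1, of Gli1 and Gli2, and of Gli2 and Boc overlapped. In the controls it ran Gas1 (215 TPM), Cdon (111), Smo (104), Gli1 (58.1), Ptch1 (57.2), Boc (51.1), Gli2 (50.2), Gli3 (42.0) and Hhip (5.77). There Cdon and Smo overlapped, as did each neighbouring pair from Gli1 to Gli3. A co-receptor was thus the most abundant of these transcripts per length in the controls, and Smo in libraries labelled Brg1cKO, and Hhip was the least abundant in both.

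The controls differed from each other more than the libraries labelled Brg1cKO did. The higher replicate exceeded the lower by 1.002-fold to 1.66-fold over the 9 genes between the libraries labelled Brg1cKO, with a median of 1.16, and by 1.04-fold to 8.33-fold between the controls, with a median of 1.75. Over the 6902 genes whose average log2 CPM reached 5, the median was 1.15 between the libraries labelled Brg1cKO and 1.37 between the controls. The control differences did not share a direction. Boc, Ptch1 and Gli3 were higher in control replicate 1, by 2.51-fold, 2.08-fold and 1.92-fold, while Hhip and Smo were higher in control replicate 2, by 8.33-fold and 1.75-fold. Cdon, Gas1, Gli1 and Gli2 stayed within 1.5-fold in each group.

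**Figure D3:**
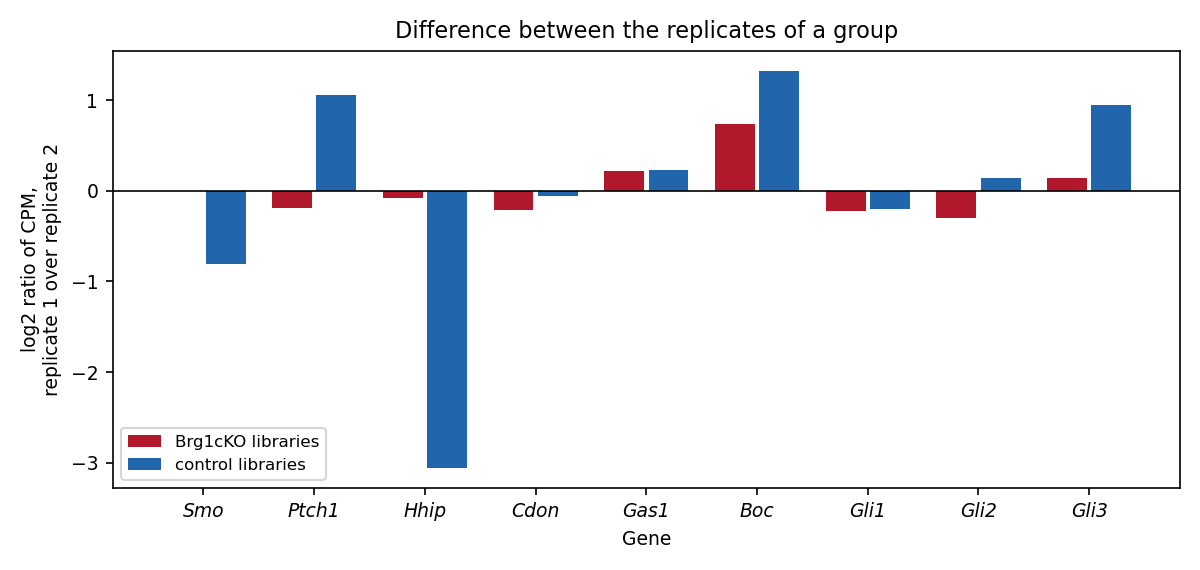
Log2 ratio of CPM in replicate 1 over replicate 2 for each Hedgehog gene, as bars from 0, for the Brg1cKO and the control libraries. The control bars of Boc, Ptch1 and Gli3 point up and those of Hhip and Smo point down, while Cdon, Gas1, Gli1 and Gli2 have short bars in both groups.

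Leaving out a control changed which genes passed, since the spread then came from the closer pair labelled Brg1cKO and the lone control was assumed to vary like it. Without control replicate 1, edgeR called Cdon and Gas1 lower, where 8.82% of all genes were called lower, and Ptch1 and Gli3 higher, where 8.82% were called higher. Without control replicate 2 it called Cdon, Gas1, Boc and Ptch1 lower, where 8.39% of all genes were, and Smo higher, where 8.46% were. Ptch1 was thus called in opposite directions, with log2 fold changes of 0.65 (adjusted p = 0.00402, edgeR) and -0.43 (adjusted p = 0.0348, edgeR), depending on which control was kept. Cdon and Gas1 were called lower against either control, and their estimates stayed between -0.97 and -0.75 for Cdon and between -1.06 and -0.81 for Gas1 with any 1 library left out. With every gene of at least 1 count in the fit, Cdon and Gas1 passed as well (adjusted p = 0.0263 and 0.0358, edgeR), where 1.01% of all genes were called lower. Without Brg1cKO replicate 1 or 2 the spread came from the controls, and no member passed. With 1 library left in a group, that cannot show whether the members stand out from other genes. The log2 fold changes were then -0.75 for Cdon and -1.04 for Gas1 without replicate 1, and -0.97 and -0.82 without replicate 2.

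**Figure D4:**
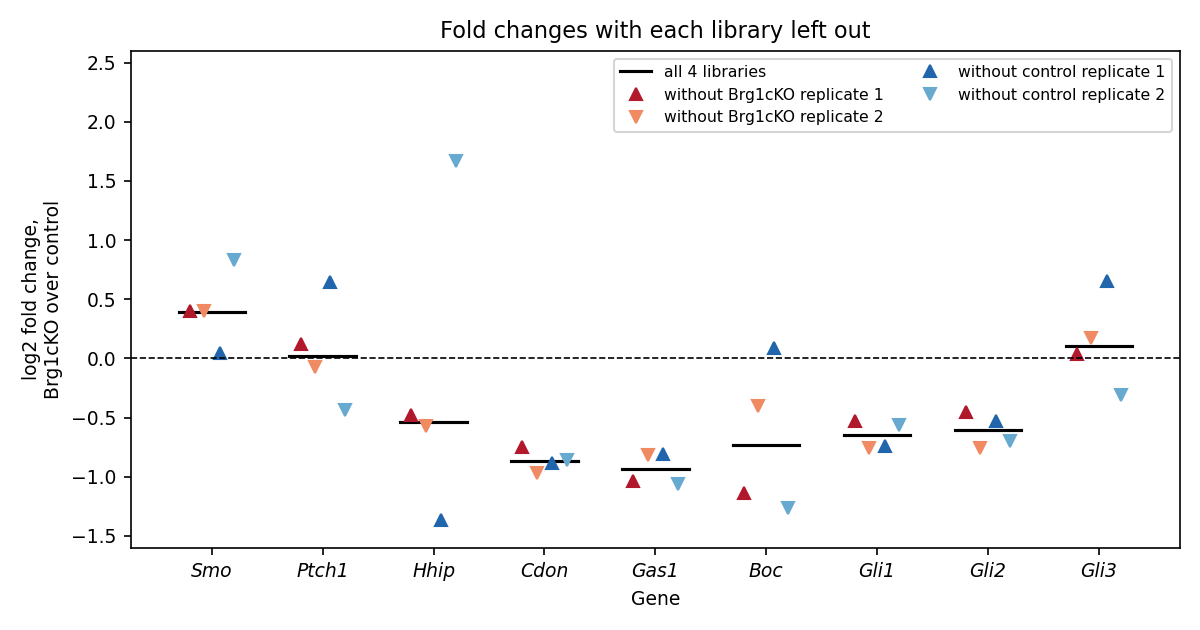
Log2 fold change of each Hedgehog gene, Brg1cKO over control, with all 4 libraries (black lines) and with each library left out (triangles). The triangles of Cdon, Gas1, Gli1 and Gli2 stay below 0, and those of Ptch1, Gli3, Boc and Hhip fall on both sides of 0 depending on the control left out.

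The members' differences stood beside other shifts in the same libraries. Otic epithelium markers had a median log2 fold change of -1.99, neuron markers -1.67, white blood cell markers 2.11, striated muscle markers 3.18, head mesenchyme markers 0.35 and endothelial markers 0.02. The highest marker of otic epithelium, Oc90, the main matrix protein of otoconia, fell to 44.6 and 49.1 CPM in libraries labelled Brg1cKO, against 782 and 732 CPM in the controls (log2 fold change -4.01 ± 0.155 SE, adjusted p = 0.000326, edgeR). The next, Epcam and Eya1, had log2 fold changes of -2.13 and -1.99 (adjusted p = 0.0842 and 0.145, edgeR). Of the head mesenchyme collagens, Col1a1 stood at 568 and 580 CPM in libraries labelled Brg1cKO, against 1107 and 1207 CPM in the controls (adjusted p = 0.0543, edgeR). Col1a2 stood at 551 and 620 CPM in libraries labelled Brg1cKO, against 905 and 968 CPM in the controls (adjusted p = 0.121, edgeR), and Col3a1 at 1300 and 1358 CPM in Brg1cKO against 1188 and 1299 CPM in the controls. Among endothelial receptors and adhesion proteins, Cdh5, Kdr and Flt1 had log2 fold changes of 0.15, 0.43 and -0.43, and 0 of these passed by edgeR. Mrc1, a macrophage receptor, rose to 424 and 397 CPM in libraries labelled Brg1cKO, against 46.3 and 71.7 CPM in the controls (adjusted p = 0.0371, edgeR), with log2 fold changes of 1.85 for Csf1r and 2.11 for Coro1a. Nefm, a neurofilament, fell to 199 and 211 CPM in libraries labelled Brg1cKO, against 592 and 717 CPM in the controls (adjusted p = 0.0371, edgeR), with -1.49 for Tubb3 and -1.83 for Stmn2. The muscle genes Myh7, Actc1 and Myh6 had log2 fold changes of 1.78, 2.43 and 3.18, none past the threshold by edgeR. Red blood cell markers had a median of -1.76, with Hbb-y at -1.76, Hba-x at -1.41 and Hbb-bh1 at -1.09, and neural crest and glia markers -0.25, with Erbb3 at -1.54 and Sox10 at -1.28. Hindbrain markers had a median of -0.22, with Zic1 at -0.69, Irx3 at -1.27 and Egr2 at -0.23, and floor plate and ventral neural tube markers -0.71, with Ntn1 at -0.63 and Shh at -0.80. None of the genes named from these last 4 lists passed by edgeR. The head mesenchyme, hindbrain and neural crest medians took in Osr1, Sox1 and Cdh19, respectively, each with 0 reads in both controls. These genes passed the filter on low counts only through the libraries labelled Brg1cKO.

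The part of these shifts in the values of Cdon, Gas1, Gli1 and Gli2 was not tested. In RNA from many cells, fewer cells of a type and less RNA per cell cannot be told apart.

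The genes whose levels over the 4 libraries lay nearest to a member's, by Euclidean distance of centred log2 CPM among 11072 other genes, were for Gli1 1110038B12Rik, Col16a1, a collagen, and Uqcrb, a subunit of respiratory complex III, from the nearest on. 1110038B12Rik stood at 32.6 and 39.4 CPM in libraries labelled Brg1cKO and at 51.9 and 61.7 CPM in the controls, a distance of 0.0495. Col16a1 stood at 49.2 and 54.2 CPM in libraries labelled Brg1cKO and at 77.4 and 86.5 CPM in the controls, a distance of 0.0693. For Ptch1 they were Smurf1, a ubiquitin ligase, Ssr2, a subunit of the translocon-associated complex, and Psmd8, a subunit of the proteasome. Smurf1 stood at 90.1 and 99.9 CPM in libraries labelled Brg1cKO and at 130 and 59.96 CPM in the controls, a distance of 0.0550. With 4 libraries, such likeness is a description of these libraries.

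Transcripts of the ligands Dhh and Ihh were sparse. Per length, Shh reached 9.84 and 21.3 TPM in libraries labelled Brg1cKO and 19.1 and 34.7 TPM in the controls. Shh stood at 7.38 and 15.97 CPM in libraries labelled Brg1cKO and at 14.3 and 26.3 CPM in the controls, with overlapping groups (log2 fold change -0.80 ± 0.794 SE, adjusted p = 0.798, edgeR). Dhh had 118 and 17 reads in libraries labelled Brg1cKO and 0 in both controls, which makes its level at least 26.7-fold higher against 3 reads over the controls, a bound for counting error only that is 46.0 from replicate 1 alone and 7.48 from replicate 2 alone (unadjusted p = 0.0325, adjusted p = 0.368, edgeR). Ihh was not tested, with 1.23 CPM in Brg1cKO replicate 2 and 0 reads in the other libraries. Scube3 and Scube1, which encode secreted proteins of a family that helps release the lipid-bearing ligand, stood at 179 and 160 CPM in Brg1cKO against 226 and 222 CPM in control libraries and at 254 and 266 CPM in Brg1cKO against 201 and 270 CPM in control libraries. Of 7 tested genes for ligands and their release, 0 passed by edgeR, 4 were negative and 3 positive, with a median of -0.25. At an unadjusted p under 0.05 by edgeR, 1 (Dhh) was higher, where 7.66% of all genes were. Dhh passed the filter on low counts only through the libraries labelled Brg1cKO. The counts of higher and of positive genes, and the median, are therefore not read as a result. Floor plate and ventral neural tube markers summed to 133 and 166 CPM in libraries labelled Brg1cKO and to 207 and 225 CPM in the controls. Most of each sum was Ntn1, at 91.1 and 89.5 CPM in Brg1cKO against 156 and 123 CPM in control libraries. Of the 6 of these markers tested, 4 were negative and 2 positive. Nkx2-9 was at 0 in every library, and Olig2 in all but control replicate 2.

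Among other ligand-binding proteins, 0 of 5 passed by edgeR, with 3 negative, 2 positive and a median of -0.40. Lrp2, the endocytic receptor megalin, which binds SHH in the neuroepithelium, stood at 93.1 and 87.8 CPM in libraries labelled Brg1cKO and at 46.4 and 29.3 CPM in the controls. Its groups were apart, with a log2 fold change of 1.26 ± 0.367 (SE, unadjusted p = 0.0106, adjusted p = 0.353, edgeR), in the opposite direction to Cdon and Gas1. Gpc6, a glypican, stood at 45.0 and 48.7 CPM in Brg1cKO against 104 and 70.5 CPM in control libraries (log2 fold change -0.90 ± 0.347 SE, unadjusted p = 0.0350, adjusted p = 0.368, edgeR), and Gpc3, a glypican that competes with PTCH1 for ligand, at 557 and 627 CPM in Brg1cKO against 464 and 598 CPM in control libraries. Gpc4 stood at 36.7 and 36.9 CPM in Brg1cKO against 57.8 and 43.3 CPM in control libraries.

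Cytoplasmic transducers numbered 20, of which 0 passed by edgeR, with 13 negative, 7 positive and a median of -0.20. Efcab7, which tethers the EVC complex at the base of the cilium where it couples SMO to GLI proteins, stood at 0.751 and 1.12 CPM in libraries labelled Brg1cKO, from 22 and 29 reads, and at 21.6 and 20.1 CPM in the controls, from 333 and 379 reads. Both pairs were close and the groups far apart, with a log2 fold change of -4.47 ± 1.06 (SE, unadjusted p = 0.00366, adjusted p = 0.264, edgeR). Evc itself stood at 44.5 and 41.1 CPM in Brg1cKO against 60.6 and 82.8 CPM in control libraries (log2 fold change -0.74 ± 0.360 SE, adjusted p = 0.483, edgeR). Arrb2, a beta-arrestin that helps carry SMO to the cilium, stood at 66.6 and 84.2 CPM in Brg1cKO against 31.6 and 43.8 CPM in control libraries (log2 fold change 1.0005 ± 0.375 SE, unadjusted p = 0.0312, adjusted p = 0.368, edgeR). Gnas, the stimulatory G protein that opposes the pathway through protein kinase A, stood at 162 and 154 CPM in Brg1cKO against 202 and 214 CPM in control libraries. Sufu, the inhibitor that holds GLI proteins in the cytoplasm and was not picked by the rule for named genes, stood at 101 and 125 CPM in Brg1cKO against 75.2 and 118 CPM in control libraries, with overlapping groups.

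Of 26 genes of the primary cilium, on which mammalian Hedgehog signalling depends, 0 passed by edgeR, 18 were negative and 8 positive, with a median of -0.34, where 48.5% of all genes were negative. At an unadjusted p under 0.05 there were 2 lower, Dync2h1 and B9d1, and 0 higher, where 4.8% of all genes were lower, so that count lies near the background. Dync2h1, the motor of retrograde transport in the cilium, stood at 45.4 and 37.1 CPM in libraries labelled Brg1cKO and at 86.1 and 113 CPM in the controls (log2 fold change -1.27 ± 0.334 SE, adjusted p = 0.308, edgeR). B9d1, of the transition zone, stood at 5.57 and 6.29 CPM in Brg1cKO against 64.6 and 16.4 CPM in control libraries, with controls that differed by 3.93-fold (log2 fold change -2.77 ± 0.801 SE, adjusted p = 0.353, edgeR). Wdr19, a subunit of the retrograde transport complex, stood at 14.8 and 13.8 CPM in Brg1cKO against 26.4 and 39.4 CPM in control libraries, and Tulp3, which brings receptors into the cilium, at 85.1 and 50.8 CPM in Brg1cKO against 105 and 115 CPM in control libraries.

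Genes known to respond to Hedgehog in other tissues went in both directions. Of 20, 17 were tested and 0 passed by edgeR, 7 were negative and 10 positive, with a median of 0.20. Setting genes at 0 in both controls to their bounds could not move this median, since the bounds also lie above it. At an unadjusted p under 0.05, 4 of the 17 were higher, where 7.66% of all genes were. There were 2 lower, where 4.8% of all genes were, a count near the background. Of the 4 higher genes, Foxl1, Osr1 and Nkx6-2 had 0 reads in both controls. These 3 passed the filter on low counts only through the libraries labelled Brg1cKO. The counts of higher and of positive genes, and the median, are therefore not read as a result. Foxl1, a forkhead factor of gut mesenchyme, had 198 and 244 reads in libraries labelled Brg1cKO and 0 in both controls (adjusted p = 0.328, edgeR). Against 3 reads over the controls its bound was 92.3-fold higher, or 77.2 from replicate 1 alone and 107 from replicate 2 alone. Osr1, a factor of lateral and intermediate mesoderm, had 117 and 93 reads in Brg1cKO libraries against 0 in both controls (adjusted p = 0.368, edgeR). Its bound was 43.3-fold higher, or 45.6 and 40.9 from replicates 1 and 2 alone. Nkx6-2, a ventral neural tube factor, had 119 and 392 reads in Brg1cKO libraries against 0 in both controls, at least 109-fold higher, a bound that is 46.4 from replicate 1 alone and 173 from replicate 2 alone (adjusted p = 0.312, edgeR). The controls were the shallower libraries, and these bounds cover counting error only. Spread between controls can be larger: Foxd3 had 382 reads in control replicate 1 and 0 in replicate 2, and Fbxo2 274 and 0. Nkx2-2, induced by the highest SHH levels in the neural tube, stood at 2.66 and 1.97 CPM in libraries labelled Brg1cKO and at 5.72 and 40.7 CPM in the controls (log2 fold change -3.32 ± 1.17 SE, adjusted p = 0.368, edgeR).

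Otocyst genes known from mouse mutants to need SHH leaned the same way throughout, although 0 of 7 passed by edgeR. All 7, Pax2, Otx1, Otx2, Tbx1, Gata3, Neurog1 and Neurod1, were negative, with a median of -1.97, and 6, all but Tbx1, had an unadjusted p under 0.05, where 4.8% of all genes were lower at that p. This list was chosen with earlier results of these data known, so its counts describe the list and are not a test. Otx1 stood at 1.40 and 2.08 CPM in libraries labelled Brg1cKO and at 36.4 and 80.1 CPM in the controls (adjusted p = 0.0840, edgeR). Otx2, a factor of the ventral otocyst, stood at 21.9 and 17.01 CPM in Brg1cKO against 93.5 and 58.8 CPM in control libraries (adjusted p = 0.228, edgeR). Pax2 stood at 20.4 and 6.94 CPM in Brg1cKO against 81.0 and 120 CPM in control libraries (adjusted p = 0.191, edgeR) and Gata3 at 23.7 and 27.7 CPM in Brg1cKO against 85.1 and 57.7 CPM in control libraries (adjusted p = 0.328, edgeR). Pax2 and Gata3 also stand among the otic epithelium markers, whose median was -1.99, close to that of the 7 genes, and the median of the 9 Hedgehog genes was -0.61. The differences between these medians were not tested.

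**Figure D5:**
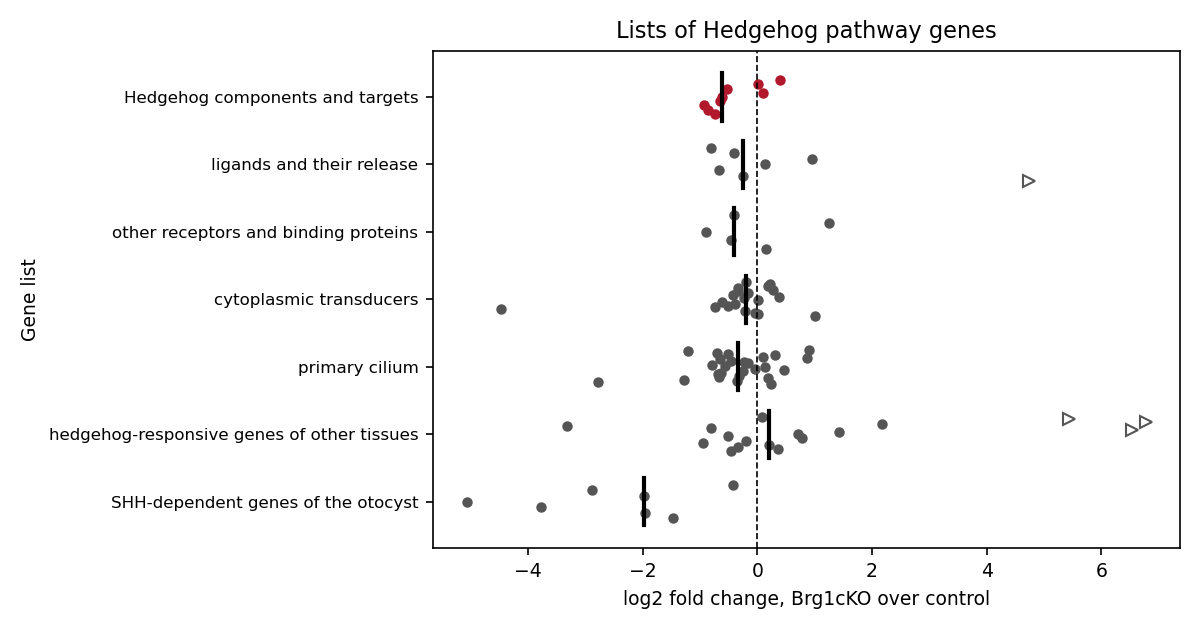
Log2 fold change, Brg1cKO over control, of the tested genes of 7 lists, with a point for each gene and a black bar at each median and open triangles for lower bounds of genes at 0 in both controls. The medians run from -1.97 for otocyst genes that need SHH to 0.20 for Hedgehog-responsive genes of other tissues. Genes shown as triangles passed the filter on low counts only through the Brg1cKO libraries, and the medians of their lists take them in.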

How the data were processed

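The files the authors deposited hold, for 4 libraries, unnormalized whole-number counts of reads by Ensembl identifier. Per the submitters' processing notes, HISAT2, HTSeq, DESeq2 and mm10 were used, and their versions, the strand setting and the annotation were not stated there. The 5 counters that name no gene were 36.0% and 36.3% of records in libraries labelled Brg1cKO and 51.8% and 50.7% in the controls, and were left out. Symbols, positions and summed exon lengths were read from GENCODE M21, which is of that build (52489 of 52636 identifiers matched).

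The test was that of edgeR 4.0.16 under R 4.3.3: filterByExpr with a minimum count of 10, TMM scaling, and the robust quasi-likelihood F-test on group, with Benjamini-Hochberg adjustment over all genes tested and a threshold of 0.05. Fold changes are of Brg1cKO over control, with intervals of 95% from the fit. TPM used the summed exon length and no TMM scaling. DESeq2 1.42.0, limma voom (limma 3.58.1), other scalings, filters, moderations, a replicate block and each library left out were tried as alternatives.

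The members and lists were chosen with earlier results of these data known. In the other pathway lists, called genes and the 4 with the smallest p are named, in the marker lists the 3 with the highest level (some are not reported here), and for Gli1 and Ptch1 the 3 nearest genes of an average log2 CPM of at least 3. Genes named outside this rule were chosen after their values were seen.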

Additional observations from a re-analysis of the deposited data

Results flagged for a closer look

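The records not counted to a gene, which the comparisons do not use, held shares that were higher in libraries labelled Brg1cKO. Those assigned to several genes averaged 2.98% of records in libraries labelled Brg1cKO, against 2.22% in controls, and those aligned to several places 8.98%, against 7.70% in controls. Other shares were lower in libraries labelled Brg1cKO and differed by more. Records not aligned were 9.54% and 9.41% in libraries labelled Brg1cKO, against 20.9% and 19.1% in controls, and records in no gene 14.5% and 14.96%, against 21.04% and 21.6% in controls. Set against reads in genes, ambiguous records came to 4.69 and 4.63 per 100 reads in libraries labelled Brg1cKO and to 4.63 and 4.47 in controls. Of aligned records, 9.90% and 9.94% aligned to several places in libraries labelled Brg1cKO and 9.65% and 9.60% in controls. On these bases the groups were close. How many of these records came from the Hedgehog genes is not known from these files.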

How the results depend on the processing

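The count of called genes, 5 with edgeR, was 38 at an adjusted p under 0.10, 417 with every gene of at least 1 count, 10 with a minimum count of 50, 2422 with DESeq2, 54 with limma voom, 70 with the newer edgeR moderation and 140 with the replicate number as a block. With 1 library left out it ran from 33 (without Brg1cKO replicate 2) to 3519 (without control replicate 1). The count of called Hedgehog genes, 0 of 9, was 2 with every gene of at least 1 count, 4 with DESeq2, and 0 to 5 with 1 library left out, the highest without control replicate 2. The replicate block left it at 0. The numbers do not pair the libraries by the labels, and deviations of same-numbered libraries had a correlation of -0.0053 across genes.

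Of 135 recomputed log2 fold changes, 9 genes under 15 alternatives, 112 kept direction and side of the threshold, 14 newly passed and 9 changed sign. Sign changes were found in Ptch1 (-0.02 with RLE scaling and with DESeq2, -0.43 to 0.65 with 1 library left out), Gli3 (-0.31 to 0.65 with 1 library left out), Boc (-1.26 to 0.0843 likewise) and Hhip (0.0068 with voom, 0.15 with the replicate block, -1.36 to 1.67 with 1 library left out). For these genes the controls differed by 1.92-fold to 8.33-fold. Cdon, Gas1, Gli1, Gli2 and Smo kept their sign under all 15. With 2 libraries a group and all of them kept, the 95% intervals of Ptch1 and Gli3 reached down to -0.75 and -0.71. Those of Boc and Hhip reached down to -2.01 and -3.21. The interval of Cdon, -1.32 to -0.40, overlapped each of them, and differences between genes were not tested.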
